A study of Rattus norvegicus with 6 samples.

Results

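The genes described here encode sensors of microbial products, complement proteins, secreted defence proteins, S100 proteins and annexins, and they were compared between rat endometrial epithelial organoids (rEEOs) and rat bone marrow mesenchymal stem cells (rBMSCs). They were chosen by gene symbol alone: Toll-like and NOD-like receptors with their co-receptors and adaptors, complement components and regulators, antimicrobial and whey acidic protein genes, and every S100 and annexin symbol. Of 13728 genes in the expression table, 69 carried such a symbol, and the 55 whose counts summed to at least 10 over the 6 libraries are the members. They comprise 16 sensors and inflammasome genes, 14 complement genes, 9 secreted defence genes, 9 S100 genes and 7 annexins. The 14 genes under the minimum were Anxa9, C5, Camp, Defb4, Masp2, Nlrp1b, Nlrp6, Reg3b, S100a5, S100z, Tlr13, Tlr9, Wfdc11 and Wfdc21, and C3, the C1q chains, Clu, Ltf and Ly96 were not analysed here. One symbol, S100pbp, belongs to a protein that binds an S100 protein and is not itself one.

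Bulk RNA-seq was performed on 3 rEEOs and 3 rBMSCs samples. The rEEOs came from glands of the uterus of young female Sprague-Dawley rats and were grown at low passage in Matrigel, in a medium with EGF, FGF10, noggin, Wnt3a, R-spondin-1, the TGF-beta receptor inhibitor A83-01 and the ROCK inhibitor Y27632. The rBMSCs were purchased cells labelled with red fluorescent protein and were grown in medium with serum, so cell type and culture cannot be told apart in this comparison. No source says that replicates came from separate animals or cultures, so p-values measure the spread between these samples, which may be technical.

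Toll-like receptors recognise microbial lipids, proteins and nucleic acids and signal mostly through the adaptor MyD88, whereas NOD-like receptors work inside the cell and some of them assemble the inflammasome, in which the adaptor ASC activates caspase-1. Complement is a cascade of serine proteases started by C1r and C1s, by MASP-1 or by factors B and D, and host cells are protected from it by regulators such as CD55 and CD59. The uterine epithelium secretes protease inhibitors and defensins into the lumen and carries immunoglobulin to it, and S100 proteins and annexins are calcium-binding proteins, the latter attached to membranes, found in most cells.

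Promoters of 5 members from both directions of change are shown, and they do not stand for the other members. Tlr6 and Tlr1 lie beside each other on chromosome 14 with no protein-coding gene between them. Tlr2 and Cd55 were higher in rEEOs, and C1r was higher in rBMSCs. Each promoter is the 250 bases before the RefSeq start in GRCr8, 5′ to 3′ on the gene's strand, at chr14:43715559-43715808 (+) for Tlr6, chr14:43747571-43747820 (+) for Tlr1, chr2:171504558-171504807 (-) for Tlr2, chr13:44438102-44438351 (-) for Cd55 and chr4:159098763-159099012 (+) for C1r. Capitals mark a match to a kappaB motif, read as GGG, any 2 bases, TT, any base and CC, to a C/EBP motif, TTGCNNAA, or to an AP-1 motif, TGANTCA, each searched on both strands, and the motifs were chosen after the expression values were seen.
Tlr6: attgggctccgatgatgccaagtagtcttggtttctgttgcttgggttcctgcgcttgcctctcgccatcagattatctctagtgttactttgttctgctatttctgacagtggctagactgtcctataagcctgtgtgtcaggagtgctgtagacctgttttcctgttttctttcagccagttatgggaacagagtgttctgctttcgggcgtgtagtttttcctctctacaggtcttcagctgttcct
Tlr1: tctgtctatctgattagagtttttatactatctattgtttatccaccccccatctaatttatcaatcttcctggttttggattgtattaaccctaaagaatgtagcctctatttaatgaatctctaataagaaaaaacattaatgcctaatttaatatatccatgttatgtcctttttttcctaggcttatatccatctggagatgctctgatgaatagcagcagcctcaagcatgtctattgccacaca
Tlr2: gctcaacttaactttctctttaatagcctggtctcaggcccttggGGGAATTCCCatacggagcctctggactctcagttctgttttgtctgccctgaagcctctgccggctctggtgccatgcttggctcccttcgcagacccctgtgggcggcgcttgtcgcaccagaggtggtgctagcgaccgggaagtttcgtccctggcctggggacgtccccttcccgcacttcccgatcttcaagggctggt
Cd55: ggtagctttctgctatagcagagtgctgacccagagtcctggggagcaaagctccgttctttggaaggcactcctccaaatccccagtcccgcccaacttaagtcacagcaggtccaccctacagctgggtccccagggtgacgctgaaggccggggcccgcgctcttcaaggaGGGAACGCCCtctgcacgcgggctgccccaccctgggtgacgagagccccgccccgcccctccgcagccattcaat
C1r: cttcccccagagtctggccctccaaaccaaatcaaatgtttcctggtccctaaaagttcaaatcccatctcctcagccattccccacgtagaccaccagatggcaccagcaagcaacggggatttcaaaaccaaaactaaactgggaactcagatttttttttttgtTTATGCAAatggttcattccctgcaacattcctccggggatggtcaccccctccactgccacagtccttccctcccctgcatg

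Some of the 55 members, such as Cfb, Slpi and Anxa6, had no sequence in the promoter set used here, and 38 had one. The kappaB motif was in 3 of them (7.89%), those of Tlr2, Cd55 and Anxa5, compared to 4.36% of all 33469 promoters of this length. The match began 205 bases before the start in Tlr2 and 76 bases before it in Cd55. The C/EBP motif was in 3 members (7.89%), Anxa1, C1r and Tlr7, compared to 9.22% of all promoters. The AP-1 motif was in 5 members (13.2%), Anxa2, Cd46, Cfp, Wfdc8 and Myd88, compared to 6.34%. Of 15 members with a promoter that were called higher in rEEOs below, 2 (13.3%) had the kappaB motif and 0 the C/EBP or AP-1 motif. Of 4 called lower, 1 (25.0%) had the C/EBP motif and 0 the kappaB or AP-1 motif. No match was found in the Tlr6 and Tlr1 windows, and a match is a description of the letters.

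The genes held summed to between 10457958 and 15421501 expected counts per library, and a floor of 3 counts corresponded to between 0.181 and 0.262 counts scaled to TMM-adjusted library size (CPM). Summed marker genes followed the labels: 6 epithelial markers summed to between 3680 and 4280 TPM, a level per transcript length, in rEEOs and to between 2.43 and 2.85 TPM in rBMSCs, and 7 mesenchymal markers to between 171 and 298 TPM and between 35500 and 37900 TPM. Among them Foxa2 was at 11.1, 0.09 and 3.46 TPM in rEEOs, and Dcn at 0.43, 0.53 and 0.67 TPM in rBMSCs. Each was at 0 in the other group, and neither passed the filter for testing. Of 11 macrophage markers 6 were held, and they summed to between 1.01 and 1.64 TPM in rEEOs, with no more than 18 counts for any gene in a library. The rEEOs libraries varied more than the rBMSCs libraries, with a median SD on the log2 CPM scale of 0.34 compared to 0.0877.

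More members were higher in rEEOs than lower. The quasi-likelihood test of edgeR was run on counts, with Benjamini-Hochberg adjusted p-values over the 10607 genes with at least 10 counts in 3 libraries, and a gene was called at an adjusted p below 0.05 with an absolute log2 fold change above 2. Of the 46 members tested, 22 were called higher in rEEOs (16.3% of all tested genes were) and 7 lower (13.3% of all), and 17 were not called. By adjusted p alone 26 were higher (33.3% of all) and 13 lower (30.2% of all). The TPM values of the groups did not overlap in 27 tested members with rEEOs above (31.1% of all) and in 15 with rEEOs below (38.4% of all). Since 19 of the 46 had under 10 counts in every library of one group and so passed the filter through the other group alone, these counts describe the tested members and not the family. When any gene with 1 count or more was tested, 29 of all 55 members (52.7%) were called higher, where 15.8% of all genes were, and 8 (14.5%) lower, where 11.5% were. The median log2 fold change was 1.78 over the tested members and 0.08 over all tested genes. Scaling by library size only moved the median of all genes by 0.38 and turned the direction of 1 member, S100a1, which did not pass the test.

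**Figure D1:**
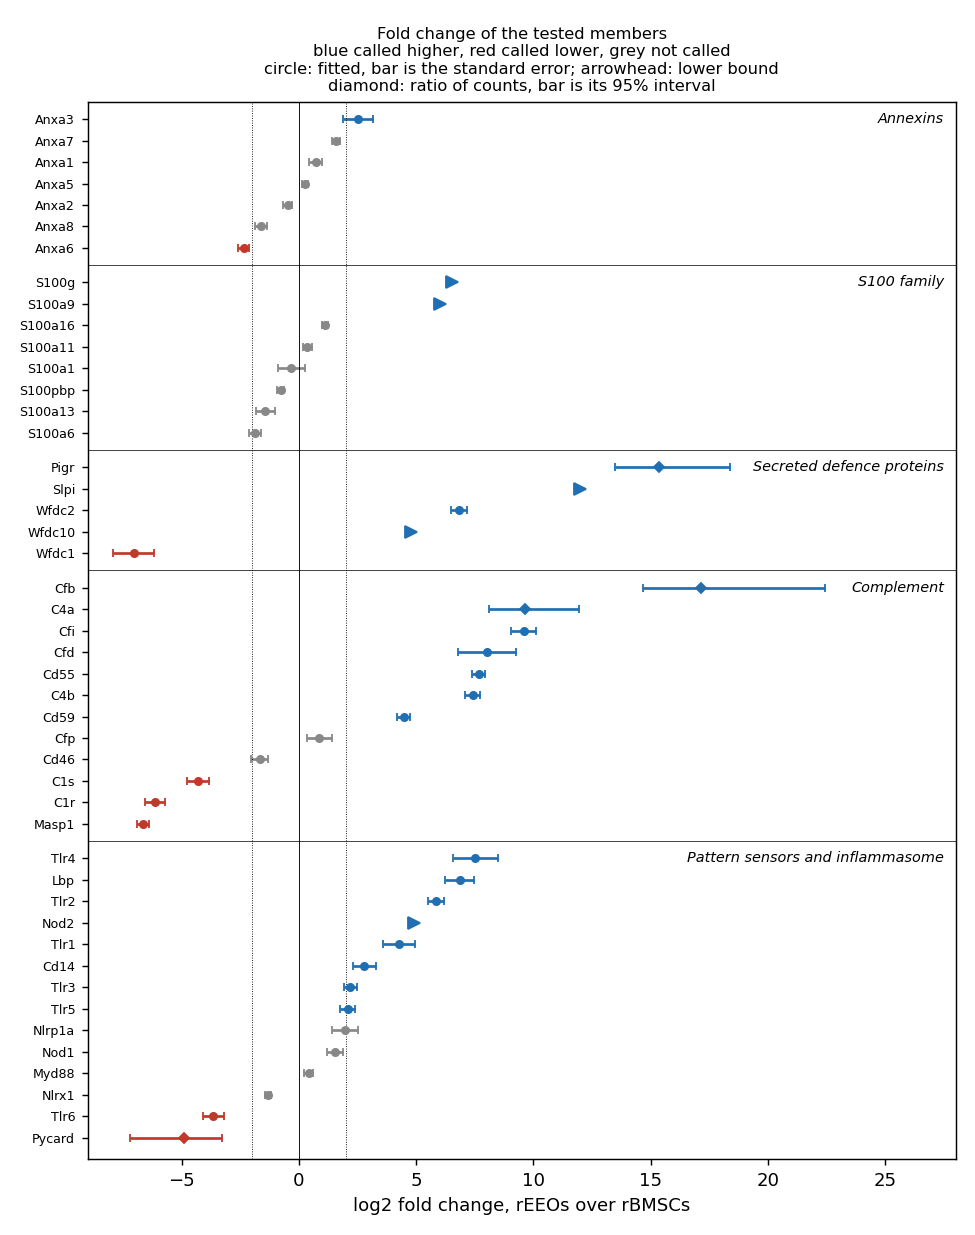
Fold change of each tested member on the log2 scale (rEEOs over rBMSCs), by family, with dotted lines at the thresholds of -2 and 2. Cfb and Pigr lie farthest to the right and Wfdc1, Masp1 and C1r farthest to the left, and 6 of 8 S100 genes and 5 of 7 annexins were not called, where 70.3% of all tested genes were not.

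Lbp, Tlr4 and Cd14, which take part in the recognition of lipopolysaccharide at the cell surface, were each called higher in rEEOs. Lbp, which encodes the plasma protein that transfers lipopolysaccharide to CD14, was at 149, 65.2 and 237 TPM in rEEOs replicates 1, 2 and 3 and at 1.5, 1.92 and 1.19 TPM in rBMSCs replicates 1, 2 and 3. All rEEOs libraries lay above all rBMSCs libraries, by a log2 fold change of 6.85 (SE 0.60, adjusted p = 0.000143), or 6.22 without rEEOs replicate 3. Tlr4, the lipopolysaccharide receptor, was at 23.0, 3.51 and 6.95 TPM in rEEOs and at 0.12, 0.06 and 0 TPM in rBMSCs (log2 fold change 7.53, SE 0.94, adjusted p = 0.000675). Its co-receptor Cd14 was at 67.3, 19.4 and 15.9 TPM compared to 5.15, 6.08 and 4.72 TPM (log2 fold change 2.79, SE 0.48, adjusted p = 0.00261). In both Tlr4 and Cd14 the groups did not overlap, and rEEOs replicate 1 was the highest library by more than 2-fold over the others' mean, at 4.39 times for Tlr4 and 3.81 times for Cd14. Without that library the log2 fold changes were 6.77 and 2.14, and without rBMSCs replicate 1 that of Tlr4 was 8.44, with both genes still called.

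The receptors of bacterial lipoproteins differed in direction. Tlr2, which pairs with TLR1 or TLR6, was at 17.6, 7.69 and 9.21 TPM in rEEOs and at 0.16, 0.31 and 0.21 TPM in rBMSCs (log2 fold change 5.85, SE 0.35, adjusted p = 3.28e-05). Its partner Tlr6 was at 0.79, 0.69 and 0.17 TPM in rEEOs and at 7.49, 6.68 and 7.12 TPM in rBMSCs (log2 fold change -3.66, SE 0.45, adjusted p = 0.0006). The neighbouring Tlr1 was called higher, at 2.49, 2.74 and 0.88 TPM compared to 0.09, 0.22 and 0.05 TPM (log2 fold change 4.27, SE 0.68, adjusted p = 0.00197). The groups did not overlap in any of these genes. Tlr1 and Tlr6 are close relatives, and their expected counts were not whole, so their separate values are uncertain. Which genes shared these reads was not tested.

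Other sensors changed less or were scarce. Tlr3, a receptor for double-stranded RNA, and Tlr5, the flagellin receptor, were called higher with log2 fold changes of 2.19 and 2.08, and without rEEOs replicate 1 Tlr3 fell under the fold threshold (1.92), as did Tlr5 when every gene of 1 count was also tested (1.98). Myd88, the shared adaptor, was at 26.9, 12.4 and 15.6 TPM in rEEOs and at 15.8, 16.2 and 15.1 TPM in rBMSCs, with overlapping groups and an adjusted p of 0.0882 in the edgeR test. Nlrx1, a mitochondrial NOD-like receptor, was lower in rEEOs (5.68 to 9.5 TPM compared to 19.7 to 21.1 TPM), with a log2 fold change of -1.32 (SE 0.14, adjusted p = 0.00033), which is within the fold threshold. Nlrp1a, an inflammasome receptor, was at 0.82 to 3.93 TPM in rEEOs and 0.38 to 0.58 TPM in rBMSCs (log2 fold change 1.96, SE 0.56, adjusted p = 0.0207) and was not called. Nlrc3 and Tlr7, a receptor for single-stranded RNA, had too few counts to pass the filter, at no more than 0.18 TPM and 0.32 TPM in any library. In all, 8 of 14 tested sensors were called higher (16.3% of all tested genes were) and 2 lower (13.3% of all), with a median log2 fold change of 2.13. Under 10 counts were read in every library of one group for 5 of the 14, which passed the filter through the other group alone. With limma, 4 sensors were called higher on log2(TPM + 1) and 5 on log2(TPM + 0.1), and the share of all genes called with limma is not given here.

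The inflammasome adaptor was lower in rEEOs. Pycard, which encodes ASC, had 29, 31 and 29 counts in rBMSCs and 0, 0 and 3 counts in rEEOs, at 10.6, 10.2 and 10.8 TPM compared to 0, 0 and 0.86 TPM. The ratio of scaled counts was 29.7, lower in rEEOs (95% counting interval 9.85 to 147, adjusted p = 0.00326), and the groups did not overlap. Casp1, the caspase that ASC recruits, and Il18, a cytokine that caspase-1 cleaves, are no members and were chosen after their values were seen. Casp1 was at 17.7, 42.5 and 29.5 TPM in rEEOs and at 0 in all rBMSCs libraries, at least 132-fold higher (adjusted p = 0.00109). Il18 was at 9.23, 13.4 and 10.4 TPM compared to 0, at least 18.9-fold higher (adjusted p = 0.00103). Casp4, an inflammatory caspase of the same list and likewise named after its values were seen, was higher in rBMSCs, at 66.9, 66.2 and 68.8 TPM compared to 8.14, 25.6 and 19.8 TPM in rEEOs (log2 fold change -1.55, SE 0.50, adjusted p = 0.0335), within the fold threshold. Nod2, an intracellular sensor of bacterial peptidoglycan, was likewise at 0 in rBMSCs and at 1.34 to 2.92 TPM in rEEOs, at least 30.2-fold higher (adjusted p = 0.00152). These bounds set the group at 0 to 3 counts per library, and intervals and floors cover counting error only. Nod1 was at 3.54 ± 0.994 TPM in rEEOs compared to 1.48 ± 0.13 TPM in rBMSCs (SD, n = 3), with a log2 fold change of 1.53 (SE 0.33, adjusted p = 0.00671) that is under the fold threshold.

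**Figure D2:**
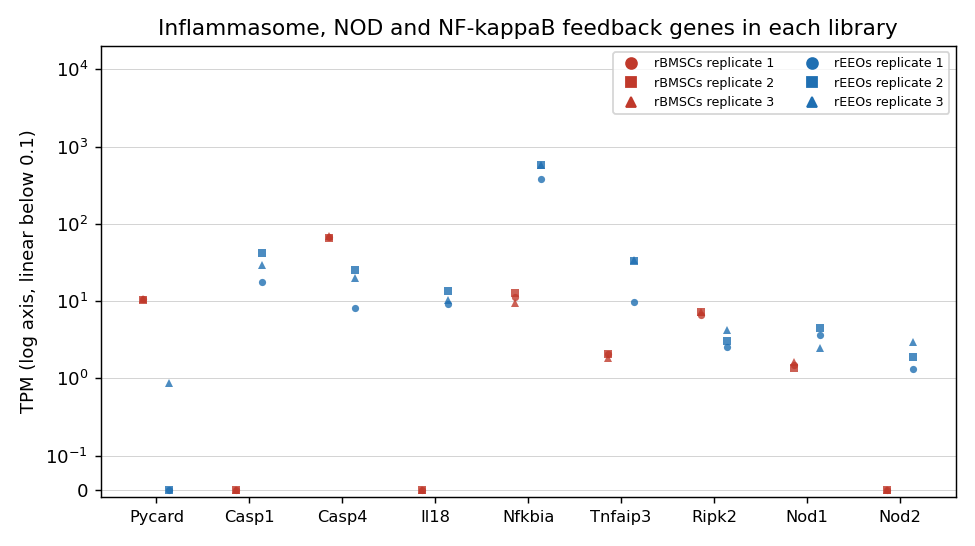
TPM of inflammasome, NOD and NF-kappaB feedback genes in each library (log axis, linear below 0.1), with one point per library. Pycard lies above in rBMSCs, and Casp1, Il18 and Nod2 are at 0 in all rBMSCs libraries.

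Of 12 complement genes tested, 7 were called higher in rEEOs (16.3% of all tested genes were) and 3 lower (13.3% of all). Under 10 counts were read in every library of one group for 8 of the 12, which passed the filter through the other group alone. The 3 called lower, C1r, C1s and Masp1, encode proteases that act at the start of the classical and lectin pathways, whereas C4a and C4b, which act in the same pathways, were called higher. C1r was at 4.98, 1.17 and 3.07 TPM in rEEOs and at 250, 244 and 238 TPM in rBMSCs (log2 fold change -6.14, SE 0.44, adjusted p = 6.3e-05). C1s, its substrate and neighbouring gene, was at 1.05, 0.18 and 0.36 TPM compared to 12.7, 11.2 and 11.2 TPM (log2 fold change -4.29, SE 0.47, adjusted p = 0.000369, and -4.97 without rEEOs replicate 1). Masp1, a protease of the lectin pathway, was at 0.15, 0.19 and 0.17 TPM compared to 21.3, 20.5 and 22.0 TPM (log2 fold change -6.66, SE 0.25, adjusted p = 7.54e-06). Every rBMSCs library lay above every rEEOs library in these 3 genes, and C1r alone carried between 84.9% and 86.5% of the complement members' TPM in rBMSCs.

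Among the genes of the alternative pathway, Cfb and Cfd were called higher in rEEOs and Cfp was not called. Cfb, the protease subunit of the alternative pathway convertase, was at 2567, 1359 and 1122 TPM in rEEOs and at 0, 0.04 and 0 TPM in rBMSCs. It ranked 89 by mean TPM in rEEOs among the 13728 genes held. Only 1 count was read in rBMSCs, a ratio of 145184 with a 95% counting interval of 26057 to 5734517 (adjusted p = 7.12e-06). Cfd, the protease that cleaves factor B, was at 14.8, 119 and 86.4 TPM compared to 0.18, 0.67 and 0.19 TPM (log2 fold change 8.02, SE 1.23, adjusted p = 0.00159). Its groups did not overlap, although rEEOs replicate 1 was at 0.144 times the mean of replicates 2 and 3, and the log2 fold change was 8.93 without rBMSCs replicate 2 and 7.43 without rEEOs replicate 2. Properdin (Cfp), which stabilises the convertase, was at 1.00 to 2.68 TPM in rEEOs and 0.96 to 1.5 TPM in rBMSCs, with overlapping groups and an adjusted p of 0.182. Without rEEOs replicate 1 its log2 fold change was 1.28 (adjusted p = 0.0116), within the fold threshold. C4a and C4b, which share most of their sequence and had counts that were not whole, were both called higher, and their separate values are uncertain: C4b was at 9.96, 7.63 and 9.37 TPM compared to 0.09, 0.06 and 0.04 TPM, and C4a at 20.1, 10.4 and 10.9 TPM compared to 0, 0.04 and 0.03 TPM. C9, a subunit of the membrane attack complex, was at 0.83, 0 and 0.04 TPM in rEEOs and 0 in rBMSCs and was not tested.

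Of the 3 membrane regulators among the members, Cd55 and Cd59 were called higher in rEEOs and Cd46 was not called. Cd55, which speeds the decay of convertases, was at 71.6, 57.1 and 53.3 TPM in rEEOs and at 0.36, 0.23 and 0.46 TPM in rBMSCs (log2 fold change 7.66, SE 0.28, adjusted p = 6.93e-06). Cd59, which blocks the membrane attack complex, was at 69.7, 74.1 and 77.1 TPM compared to 4.18, 3.04 and 5.07 TPM (log2 fold change 4.46, SE 0.28, adjusted p = 3.91e-05). The row named Cd59 is Cd59b by gene ID. Cfi, the protease that cleaves C3b and C4b, was at 40.0 to 53.9 TPM in rEEOs and at most 0.15 TPM in rBMSCs (log2 fold change 9.59, SE 0.53). Cd46, another membrane regulator, was at 0.27 TPM on average in rEEOs and 1.22 TPM in rBMSCs (log2 fold change -1.67, SE 0.36, adjusted p = 0.00671), lower in rEEOs but within the fold threshold. The listed membrane regulator Cr1l, named after its values were seen, was at 132, 51.0 and 93.7 TPM in rEEOs and at 59.6, 62.9 and 64.5 TPM in rBMSCs, with overlapping groups and no call (log2 fold change 0.77, SE 0.24, adjusted p = 0.0311).

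**Figure D3:**
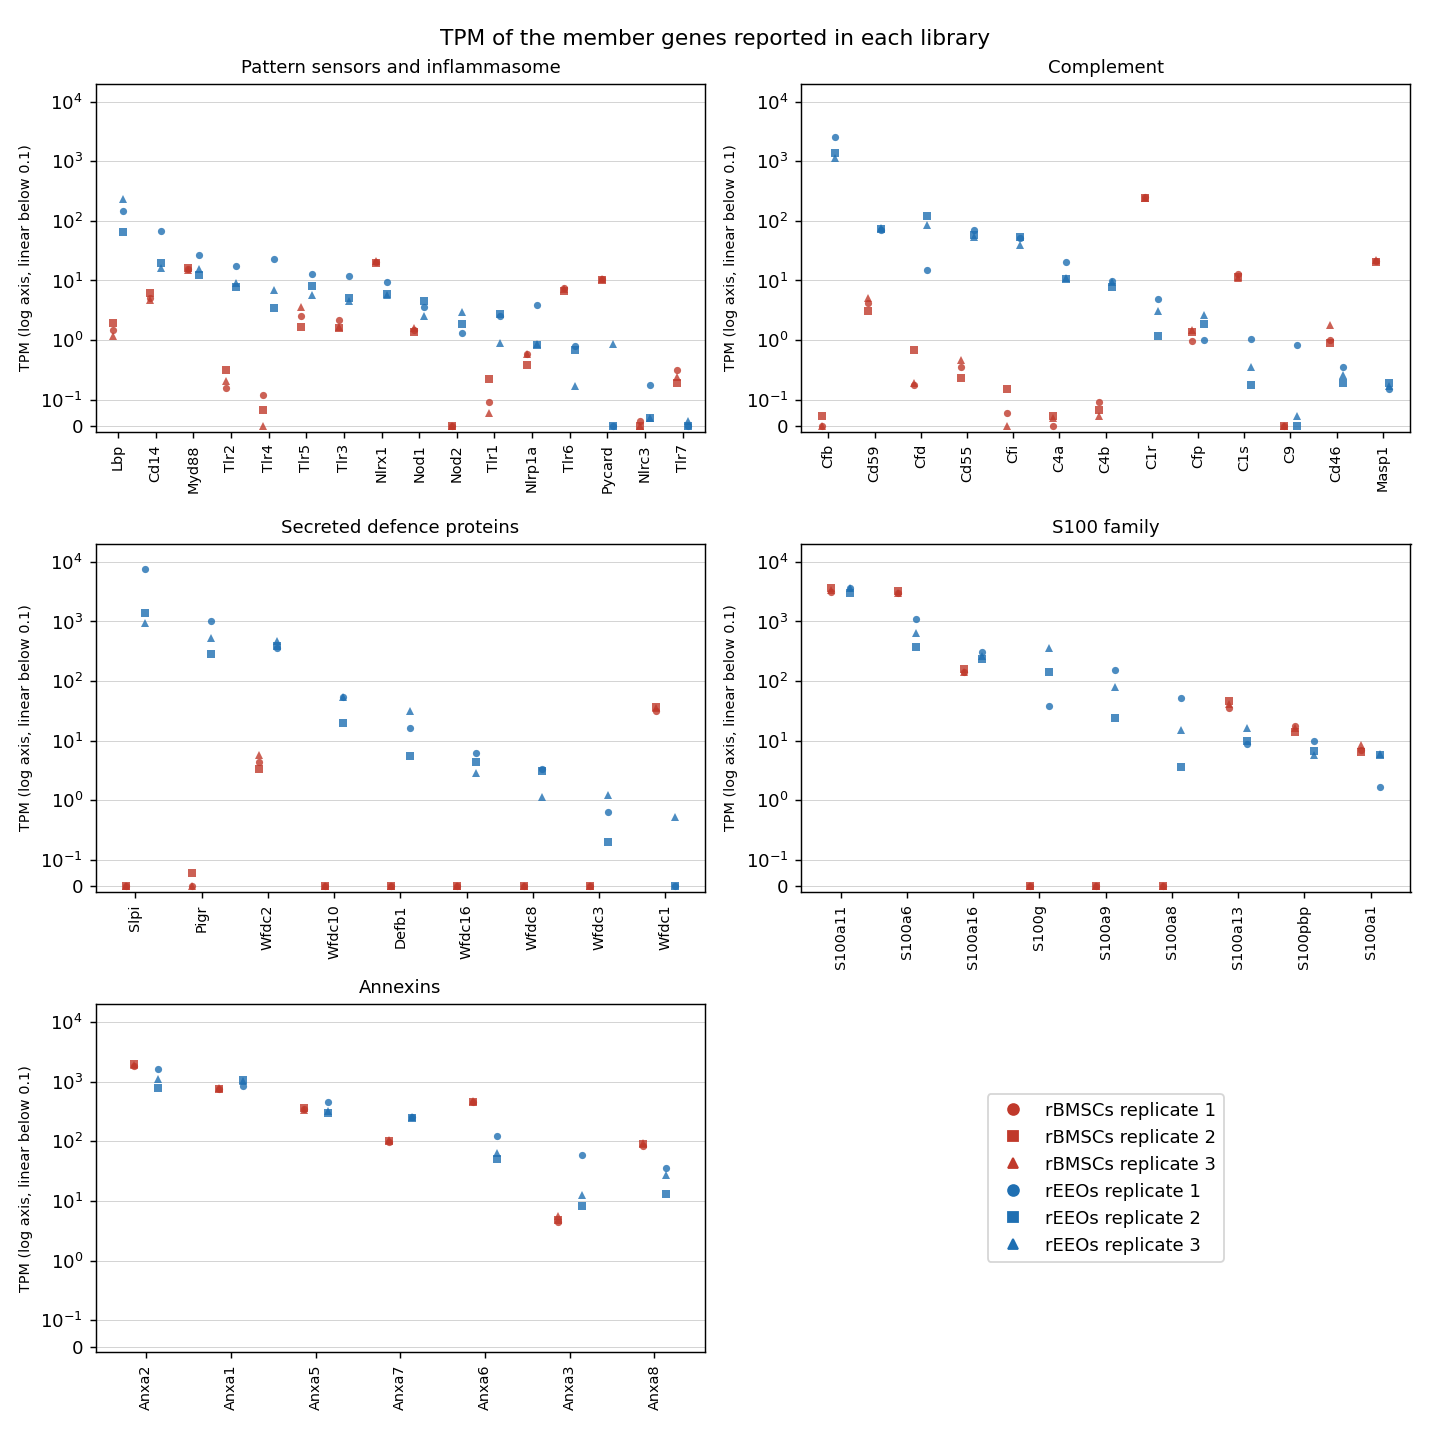
TPM of each member reported, in each library (log axis, linear below 0.1), one panel per family, with one point per library. C1r, C1s and Masp1 are above in rBMSCs, whereas Cfb, Cd55, Cd59, Slpi, Pigr and Wfdc2 are above in rEEOs.

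Secreted defence genes that were tested were higher in rEEOs with 1 exception: 4 of 5 were called higher (16.3% of all tested genes were) and 1 lower (13.3% of all). Under 10 counts were read in every library of one group for 4 of these 5. They passed the filter through the other group alone, so the counts describe the tested genes and not the family. The TPM groups of the 5 tested genes did not overlap, with rEEOs above in 4 (31.1% of all tested genes) and below in 1 (38.4% of all), and 4 of the 9 were not tested. Slpi, which encodes an inhibitor of neutrophil elastase found in uterine secretions, was at 7660, 1408 and 953 TPM in rEEOs and at 0 in all rBMSCs libraries, at least 4104-fold higher (adjusted p = 0.00132). Pigr, the receptor that carries IgA across the epithelium, was at 1025, 285 and 529 TPM compared to 0, 0.05 and 0 TPM. Its 2 counts in rBMSCs give a ratio of 41754 (95% counting interval 11558 to 344785, adjusted p = 2.35e-05). Every rEEOs library was above every rBMSCs library in both genes, and replicate 1 was the highest, at 6.49 times the mean of the others for Slpi and 2.52 times for Pigr. Without it Slpi was at least 1910-fold higher.

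Wfdc2, a whey acidic protein family member also known as HE4, was at 356, 385 and 476 TPM in rEEOs and at 4.34, 3.32 and 5.70 TPM in rBMSCs (log2 fold change 6.83, SE 0.35, adjusted p = 2.04e-05). Wfdc10, which is Wfdc10a by gene ID, was at 53.8, 20.0 and 53.2 TPM compared to 0, at least 27.3-fold higher (adjusted p = 0.00107). Wfdc1 went the other way, at 0, 0 and 0.53 TPM in rEEOs and at 32.1, 37.1 and 35.4 TPM in rBMSCs (log2 fold change -7.05, SE 0.88, adjusted p = 0.000676). Its size rests on 6 counts in rEEOs replicate 3: it was -6.33 without rEEOs replicate 1 and -11.19 without replicate 3. In RefSeq gene order Slpi, Wfdc2, Wfdc8, Wfdc16, Wfdc10 and Wfdc3 follow one another with between 1 and 7 other protein-coding genes between neighbours, and Wfdc1 is not in that run. Wfdc3, Wfdc8, Wfdc16 and the defensin Defb1 had no count in rBMSCs and did not pass the filter, and Defb1 was at 16.4, 5.47 and 31.9 TPM in rEEOs, at least 7.25-fold higher.

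**Figure D4:**
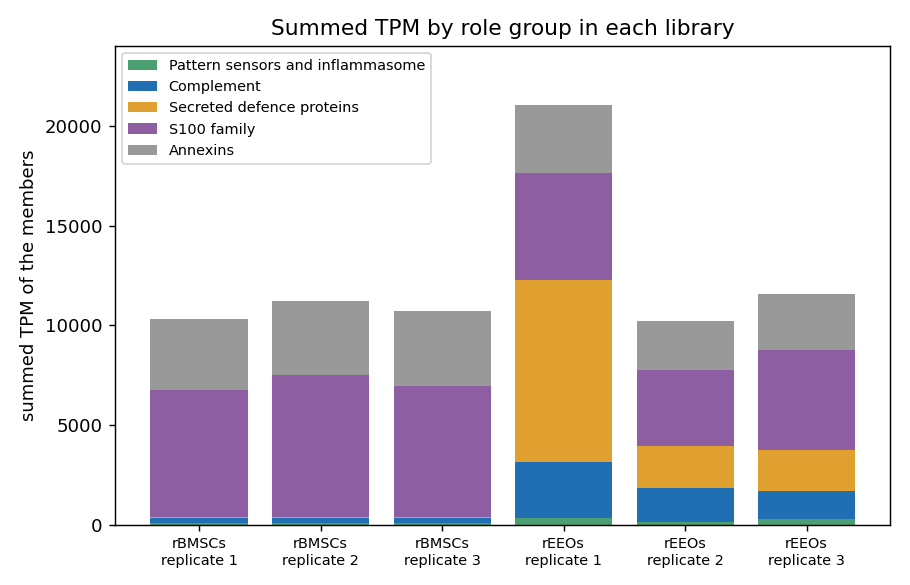
Summed TPM of the members of each family in each library. Secreted genes reach 9121 TPM in rEEOs replicate 1 and 2110 and 2048 TPM in the others, compared to at most 41.1 TPM in rBMSCs.

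The most abundant S100 genes were read in both groups. S100a11, the highest of them, was at 3643, 3020 and 3601 TPM in rEEOs and at 3153, 3607 and 3323 TPM in rBMSCs. The groups overlapped, and the log2 fold change of 0.35 (SE 0.19) did not pass the edgeR test (adjusted p = 0.146). Without rEEOs replicate 1 it was 0.49 (adjusted p = 0.013), within the fold threshold. S100a6, known as calcyclin, was at 1119, 370 and 634 TPM compared to 3027, 3271 and 3055 TPM, with no overlap and a log2 fold change of -1.88 (SE 0.26, adjusted p = 0.00106), just within the fold threshold. Without rEEOs replicate 1 it was -2.07 and the gene was called lower. S100a16 rose by a smaller amount (log2 fold change 1.11, SE 0.14, adjusted p = 0.0006) and S100a13 fell by 1.43 (SE 0.41, adjusted p = 0.0212). S100a1 was at 1.66 to 5.91 TPM in rEEOs and 6.46 to 8.64 TPM in rBMSCs and did not pass (adjusted p = 0.65), and S100pbp fell by 0.78 (SE 0.16, adjusted p = 0.00601).

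The S100 genes called higher had no count in rBMSCs. S100g, the vitamin D-dependent calcium-binding protein calbindin-D9k, was at 39.0, 143 and 365 TPM in rEEOs, at least 91.8-fold higher (adjusted p = 0.00919), with replicate 1 the lowest. The bound was 44.5-fold without replicate 3 and 131-fold without replicate 1. S100a9, a subunit of calprotectin, was at 155, 24.5 and 79.8 TPM, at least 64.2-fold higher (adjusted p = 0.0019). Its partner and adjacent gene S100a8 was at 51.4, 3.63 and 15.3 TPM and did not pass the filter, at least 6.48-fold higher, or at least 3.24-fold without replicate 1. Both are abundant in neutrophils, of whose 10 markers 6 were held. Those 6, S100a8 and S100a9 included, summed to between 29.4 and 208 TPM in rEEOs and to 0 in rBMSCs. Among the others Cxcr2 had 25, 5 and 7 counts in rEEOs, Mmp9 had 13, 0 and 0, Elane 0, 2 and 1 and Camp 2, 3 and 0. The part of such cells in the S100a8 and S100a9 values was not tested, and in bulk RNA fewer cells of a type and less RNA per cell cannot be told apart.

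Of the 7 annexins 1 was called higher (16.3% of all tested genes were), 1 lower (13.3% of all) and 5 were not called (70.3% of all). By adjusted p alone 2 were higher (33.3% of all) and 2 lower (30.2% of all). Anxa1, an inhibitor of leukocyte recruitment, was at 833, 1062 and 1027 TPM in rEEOs and at 764, 754 and 789 TPM in rBMSCs (log2 fold change 0.72, SE 0.27, adjusted p = 0.0522). Anxa2, which binds plasminogen and its activator at the cell surface, was at 1635, 779 and 1117 TPM compared to 1811, 1949 and 1923 TPM (log2 fold change -0.47, SE 0.19, adjusted p = 0.0684). Neither passed the edgeR test, although in both the groups did not overlap. This rests on rEEOs replicate 1: without it the log2 fold changes were 0.99 for Anxa1 (adjusted p = 0.00012) and -0.55 for Anxa2 (adjusted p = 0.0185), both within the fold threshold. Anxa6 was called lower, at 122, 49.8 and 63.7 TPM compared to 449, 454 and 467 TPM (log2 fold change -2.35, SE 0.23, adjusted p = 0.000215), and was -1.96 with library size only. Anxa3 was called higher at 2.53 (SE 0.63, adjusted p = 0.0127), from 59.2, 8.14 and 12.4 TPM compared to 4.43, 4.78 and 5.52 TPM. This rests on rEEOs replicate 1: without it the log2 fold change was 1.5 (adjusted p = 0.000376) and the gene was not called. Anxa7 was 1.59 higher (SE 0.17, adjusted p = 0.000344) and Anxa8 fell by 1.61 (SE 0.27, adjusted p = 0.00236) on the log2 scale, both within the fold threshold. Anxa5, which binds phosphatidylserine, was at 295 to 459 TPM in rEEOs and 342 to 357 TPM in rBMSCs, with overlapping groups and an adjusted p of 0.117. Without rEEOs replicate 1 its log2 fold change was 0.24 (adjusted p = 0.0453).

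Replicate 1 of rEEOs stood apart in the members as in other genes. Among the 45 members with a mean of at least 1 TPM in rEEOs it was the highest of the 3 rEEOs libraries in 31 (68.9%), compared to 67.1% of 9555 genes at that level. It was over 2-fold above the mean of the others in 15 members (33.3%), compared to 27.2% of all genes. Cfd, S100g, S100a1 and Cfp were under 0.5 times that mean. Leaving it out, with the same genes tested, gave 20 members higher and 8 lower.

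**Figure D5:**
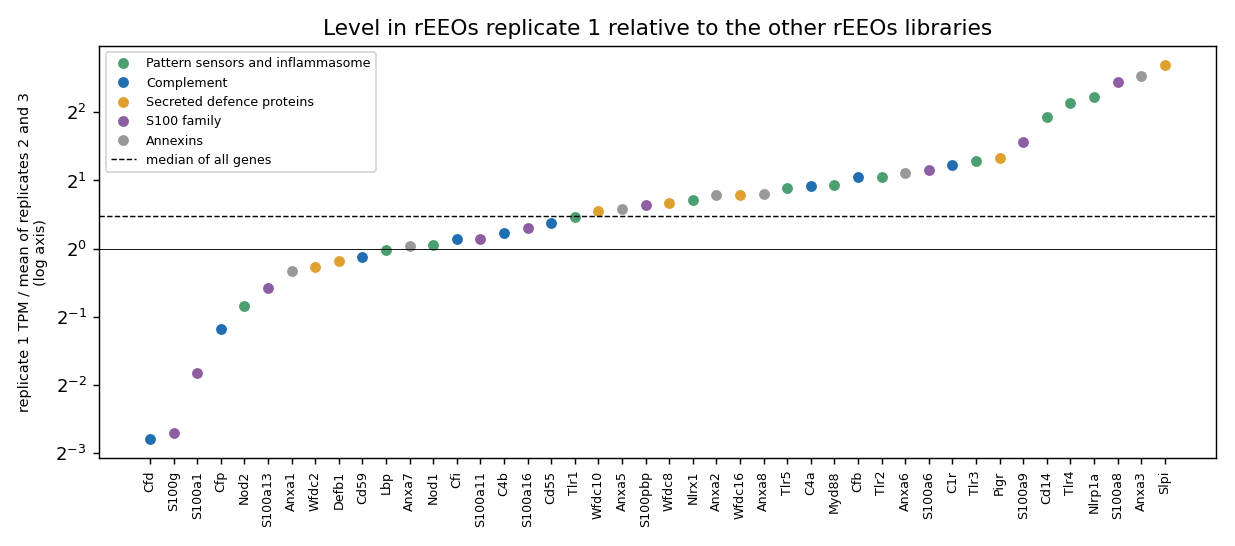
TPM in rEEOs replicate 1 over the mean of replicates 2 and 3 (log axis) for members with a mean of at least 1 TPM in rEEOs. The dashed line is the median of all genes (1.4), and among the members drawn Slpi is highest at 6.49 and Cfd lowest at 0.144.

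Other genes of these pathways were taken from lists of 67 symbols, of which 47 were held and 40 tested. Of these 9 were called higher in rEEOs (16.3% of all tested genes were), 3 lower (13.3% of all) and 28 not, with a median log2 fold change of 0.60. Among the 40 tested, 6 had under 10 counts in every library of one group and passed the filter through the other group alone. In Toll-like receptor, NOD and inflammasome signaling 4 of 26 tested genes were called higher (16.3% of all tested genes were) and 0 lower (13.3% of all) by edgeR. By adjusted p alone 10 were higher (33.3% of all) and 2 lower (30.2% of all). Nfkbia, the inhibitor of NF-kappaB that NF-kappaB itself induces, was at 380, 568 and 581 TPM in rEEOs and at 11.2, 12.8 and 9.43 TPM in rBMSCs (log2 fold change 5.83, SE 0.39, adjusted p = 5.13e-05), with replicate 1 the lowest of the rEEOs libraries. Among 9 tested complement receptors and regulators 4 were called higher (16.3% of all tested genes were) and 2 lower (13.3% of all). C4bpa, which binds C4b, was at 119, 121 and 62.8 TPM in rEEOs and 0 in rBMSCs, at least 841-fold higher (adjusted p = 0.000137). Colec12, a collectin, was at 0.24, 0.45 and 1.24 TPM compared to 54.5, 46.9 and 46.9 TPM (log2 fold change -5.94, SE 0.61, adjusted p = 0.000281, and -6.87 without rEEOs replicate 3). The integrin subunit Itgax was at 0 in rEEOs and at 1.51, 1.47 and 1.19 TPM in rBMSCs, at least 18.7-fold lower (adjusted p = 0.000311). Itgb2, another listed integrin subunit named after its values were seen, was called higher, at 0.36, 1.56 and 0.91 TPM in rEEOs and 0 in rBMSCs. Of 5 partners of S100 proteins and annexins, Plat, tissue plasminogen activator, was called higher, at 205, 75.4 and 251 TPM compared to between 28.3 and 31.5 TPM in rBMSCs (log2 fold change 2.79, SE 0.42, adjusted p = 0.00145). Dysf, the membrane repair protein dysferlin, was called lower, at 0.12, 0.10 and 0.19 TPM compared to 63.0, 60.1 and 66.4 TPM (log2 fold change -8.61, SE 0.32, adjusted p = 7.54e-06).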

How the data were processed

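Messenger RNA of 3 rEEOs and 3 rBMSCs samples had been enriched by oligo(dT) and sequenced by the authors, who trimmed reads with Trim Galore and aligned them with Bowtie2 2.2.5 (build Rnor_6.0 in the submitters' processing notes). The deposited table gives RSEM expected counts, not normalized, with TPM and FPKM computed by the authors; FPKM was used only for a check. Its copy here ends in a row with 23 of 27 fields and holds 13728 genes, and the others were not analysed here. Total counts were 15372232, 15421501 and 14892115 in rBMSCs and 13883993, 10457958 and 10704121 in rEEOs.

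Expected counts were rounded and tested in edgeR 4.0.16 (R 4.3.3) with TMM scaling, quasi-likelihood tests, a model of cell type alone and Benjamini-Hochberg adjusted p-values, at an adjusted p of 0.05 and a log2 fold change of 2. The standard error is the fold change over the square root of F. The procedure was tested on simulated data. With 3 against 3, an exact permutation test cannot go below p = 0.1. Members, lists and motifs were chosen with earlier results of these data known. Named were, per family, the members with the highest TPM among those called higher (up to 4), lower (up to 4) and not called (up to 2). The listed genes with the highest TPM in each direction (3) were named too, as were members on which a sentence on overlap or on rEEOs replicate 1 turns. Others were chosen after their values were seen. Alternatives were DESeq2 1.42.0, limma 3.58.1 on log2(TPM + 1) or log2(TPM + 0.1), other scalings, filters and thresholds, a replicate block, and leaving out each library. All 55 members matched RefSeq by gene ID. The values of 1 member, which is counted among the 55, are not reported here.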

Additional observations from a re-analysis of the deposited data

How the results depend on the processing

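The counts of members called were 22 higher and 7 lower with DESeq2, with DESeq2 size factors and with the replicate block, and the 29 members called by DESeq2 were the same. Correlations of same-numbered deviations from the group mean were 0.17, 0.193 and -0.175, and those of other pairs lay between -0.292 and 0.256. With 3 libraries per group these values cannot decide whether replicate numbers pair the samples. The listed pathway genes gave 9 higher and 3 lower with the replicate block. Members called lower were 12 with an absolute log2 fold change above 1 and 13 by adjusted p alone, and listed genes called by adjusted p alone were 18 higher and 5 lower. Leaving out a library with the same genes tested gave 20 to 23 members higher and 7 to 8 lower. With the filter applied again, members called higher were 5 to 22 and lower 4 to 8, and listed genes higher 4 to 9 and lower 2 to 3. A gene read only in the group that lost a library cannot then reach 10 counts in 3 libraries. Without an rBMSCs library, 42 members were tested, with 20 to 22 called higher and 4 lower. Without an rEEOs library, 31 were tested, with 5 to 8 called higher and 7 to 8 lower. Without rEEOs replicate 1 and with every gene of 1 count tested, chosen after the data were seen, 24 members were higher and 9 lower. Of 757 alternative values of the 35 genes named by rule and fitted, 739 kept direction and call, 9 lost the call, 9 gained it and 0 reversed. The looser thresholds (an absolute log2 fold change above 1, or adjusted p alone) reuse the main fit and so cannot lose a call or reverse. Genes at 0 in one group cannot reverse either. The call was lost by Anxa3 in 7 alternatives, by Anxa6 with library size only and by Itgax with limma. It was gained by S100a6 in 7 and by Nlrx1 in 2, the latter under the looser thresholds only. Among other members Tlr3 lost its call without rEEOs replicate 1, Tlr5 lost it without that library when every gene of 1 count was tested, and Nlrp1a gained one with library size only. With limma, 20 of 47 members tested were called higher and 8 lower on log2(TPM + 1), and 22 and 8 on log2(TPM + 0.1). The cause was not tested. Shares of all genes called are given only for the main fit, for adjusted p alone and, with all 6 libraries, for every gene of 1 count tested. Under the other settings a shift in the members cannot be told apart from a shift in all genes. A kappaB motif of 9 letters, GGGNNTTCC, run after the matches of the first were known, was in 4 of 38 member promoters (10.5%), those of Cd55, Cfi, Tlr2 and Tlr7, compared to 5.09% of all, and no longer in that of Anxa5. Depth limits members near 3 counts, such as C9, Nlrc3 and Tlr7.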

Other observations

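Listed genes outside the families described were chosen after their values were seen. Tnfaip3, which encodes the NF-kappaB feedback inhibitor A20, was at 9.77, 32.8 and 34.3 TPM in rEEOs and at 2.04, 2.08 and 1.83 TPM in rBMSCs, with replicate 1 the lowest rEEOs library and no overlap between the groups (edgeR log2 fold change 4.04, SE 0.62, adjusted p = 0.00164). Serping1, the inhibitor of C1r and C1s, was at 70.5, 55.6 and 22.1 TPM in rEEOs and at 0.71, 0.45 and 0.33 TPM in rBMSCs (log2 fold change 6.82, SE 0.54, adjusted p = 9.9e-05), the opposite direction to that of both proteases.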
